A study of Homo sapiens with 4 samples.

Results

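Semaphorins, plexins and neuropilins are the ligands, receptors and co-receptors of a guidance system that steers axons and migrating cells. The genes were taken from the deposited table by symbol, as NRP1, NRP2 and every gene named SEMA3 to SEMA7 or PLXNA to PLXND with its letter or number. This gave 31 of 61806 genes, namely 20 semaphorins, 9 plexins and 2 neuropilins. They were measured by RNA sequencing in JJ012 cells, a human line established from chondrosarcoma, a malignant tumour of cartilage-forming cells. The 2 Antcin K libraries came from cells given 10 µM Antcin K, a triterpenoid of the fungus Antrodia cinnamomea, for 24 h in culture medium. The 2 untreated libraries came from the same line, for which the labels name no vehicle. The labels give the genotype of all cells as WT and do not say more. The labels do not say whether the libraries of a group came from separate cultures, so p-values here measure only the spread between these libraries, which may be technical.

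Semaphorins are secreted or membrane-bound proteins that share a sema domain. They bind plexins, whose cytoplasmic part switches off Ras-family GTPases such as R-Ras and Rap1 and so loosens integrin adhesion. Most class 3 semaphorins cannot hold a plexin by themselves and need a neuropilin, which also binds VEGF. In the skeleton these proteins are known for signalling between osteoblasts, osteoclasts, vessels and nerve fibres.

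The libraries held 20690078 and 16911257 counted fragments in the Antcin K group and 26270686 and 18757254 in the untreated group. Mitochondrially encoded genes took 13.5% and 19.3% of counts in Antcin K replicates 1 and 2, and 26.04% and 12.95% in untreated replicates 1 and 2. Of 12 cartilage markers, 10 had a count, but COL2A1 and CNMD were at 0 in every library and ACAN, the aggrecan gene, had at most 4 counts in any library. Only the transcription factor gene SOX9 among them had a mean FPKM of at least 1, while COL11A1 had 25 to 140 counts per library and COL11A2 28 to 52. The leukocyte markers PTPRC and LYZ and the Schwann cell marker SOX10 were at 0. All 8 mesenchymal markers had counts. In CPM (counts per 1000000 of the TMM-scaled library size), both Antcin K libraries lay below both untreated libraries in 6 of them. Of all tested genes 23.3% did so, and 22.6% had both Antcin K libraries above. THY1 had both above and VIM overlapped. Among the 6, CDH11 had 7.27 and 8.43 CPM in Antcin K cells against 27.2 and 18.6 CPM in untreated cells. FAP had 2.96 and 2.45 CPM in Antcin K cells against 12.7 and 7.90 CPM in untreated cells, so in both genes untreated replicate 1 was highest, as for SEMA3C below. Of the 6 only PDGFRB was highest in untreated replicate 2, with 16.1 CPM against 14.3 CPM in untreated replicate 1. For other markers with a count, both Antcin K libraries lay below in 3 of 10 cartilage, 3 of 6 leukocyte and 2 of 6 epithelial genes. The same held for 1 of 8 endothelial, 1 of 8 neuronal and 0 of 5 glial genes. The summed FPKM (fragments scaled to exonic length and library total) of the mesenchymal markers was 472 and 662 in Antcin K cells against 1063 and 515 in untreated cells. VIM had by far the most counts among them, with 50155 and 57495 in Antcin K cells and 142854 and 49267 in untreated cells. Summed FPKM of 6 epithelial markers was 71.3 and 88.0 in Antcin K cells against 181 and 141 in untreated cells, nearly all of it from the keratin gene KRT18. Whether these marker differences have a part in the results below was not tested.

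On the scale of deposited FPKM, which allows genes to be compared, 11 of the 31 genes averaged at least 1 over the 4 libraries. PLXNB2, a receptor for class 4 semaphorins, was highest with a mean of 6.03. It was followed by SEMA3C at 3.54, SEMA4F at 3.28, PLXND1 at 2.97, SEMA6B at 2.95, NRP1 at 2.90 and SEMA4C at 2.62. The neighbours from SEMA3C to SEMA4C could not be ranked, since single libraries of SEMA3C ranged from 1.57 to 7.51 FPKM. The repertoire of JJ012 cells at that level was thus the secreted class 3 ligands SEMA3C and SEMA3F, membrane-bound ligands of classes 4, 6 and 7, the receptors PLXNB2, PLXND1 and PLXNA1, and NRP1 as the main neuropilin.

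At the other end, SEMA3D had no count in any library, which allows up to 0.0215 FPKM in the shallowest one (3 counts, counting error only). SEMA3A, SEMA3E, SEMA5B, SEMA6A and SEMA6D had 1 to 7 counts summed over the 4 libraries, and PLXNC1 had 20. SEMA3G had 1 and 0 counts in Antcin K cells and 7 and 13 in untreated cells, so its groups did not overlap. For SEMA3G edgeR without the count filter gave an adjusted p = 0.22. SEMA3E did not overlap in the other direction, with 0.232 and 0.0598 CPM in Antcin K cells against 0.0376 and 0 CPM in untreated cells. SEMA4G had 5 and 0 in Antcin K cells and 14 and 2 in untreated cells. SEMA4G also overlaps MRPL43 on the opposite strand, which holds 11450 counts. SEMA3A, the collapsing factor of sensory axons and an osteoblast product, and PLXNC1, the plexin bound by SEMA7A, were therefore near the limit of detection in these cells. Mean FPKM of the 9 genes that did not enter the test was at most 0.05.

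**Figure D1:**
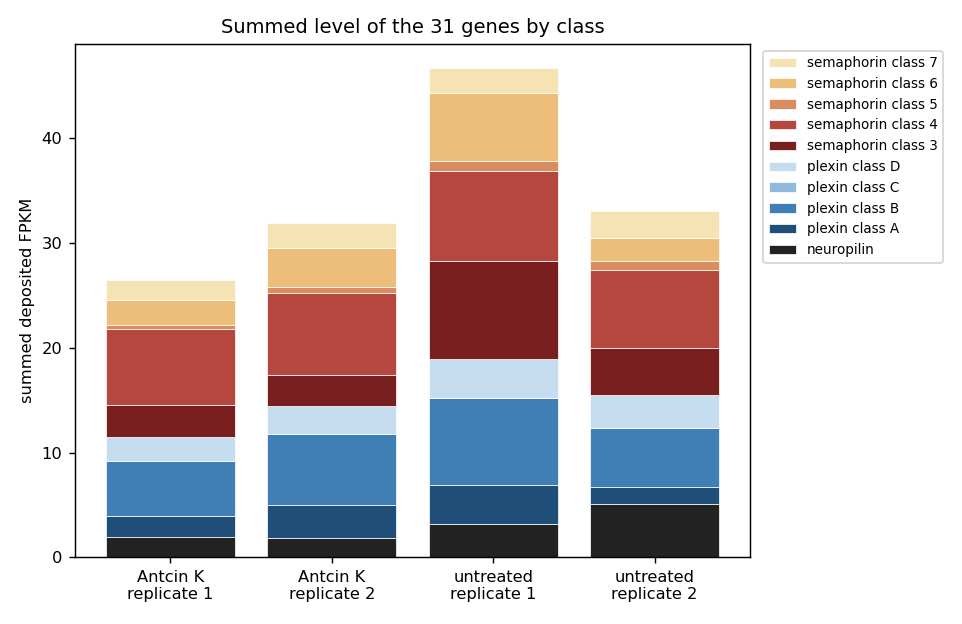
Summed deposited FPKM (vertical axis) of the 31 genes in each library, stacked by class, with Antcin K libraries on the left. The sums were 26.5 and 31.9 in the Antcin K libraries and 46.6 and 33.0 in the untreated libraries, so untreated replicate 1 stands above the other three.

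Antcin K and untreated cells were compared to ask which transcripts differ after the treatment. By edgeR, SEMA3C and NRP1, a ligand and its co-receptor, had the lowest p among these genes, with lower means in Antcin K cells. The receptor PLXNA2 came next, with a higher mean. None of them reached an adjusted p under 0.05 in that test. Of the 31 genes, 22 passed the filter on low counts and were tested among 14717 genes. In the fit, 18 of the 22 had a lower mean in Antcin K cells, where 53.8% of all tested genes did, and the median log2 fold change was -0.41, against -0.049 over all tested genes. Without untreated replicate 1 the count was 12 of 22, beside 50.3% of all tested genes, and the median was -0.14. In bulk RNA, fewer cells with a transcript and less of it per cell cannot be told apart. The quasi-likelihood test of edgeR called 0 of the 22 at an adjusted p under 0.05 and 0 of all tested genes (0.0%). At an unadjusted p under 0.05 it gave 5 of the 22, beside 12.4% of all tested genes, and these were 4 with a lower mean (background 7.61%) and 1 with a higher mean (background 4.76%). DESeq2 called 1, SEMA3C, beside 0.399% of the 13290 genes it gave an adjusted p. In edgeR run on all genes with a count, SEMA3C and NRP1 passed, 2 of 30 family genes with a count, beside 0.723% of 28764 genes.

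In 10 of the 22 genes both Antcin K libraries lay below both untreated libraries, and 23.3% of all tested genes did so. These were NRP1, PLXNB1, PLXNB3, PLXND1, SEMA3B, SEMA3C, SEMA4A, SEMA4C, SEMA4D and SEMA5A. In 1 gene, PLXNA2, both Antcin K libraries lay above, as in 22.6% of all tested genes.

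**Figure D2:**
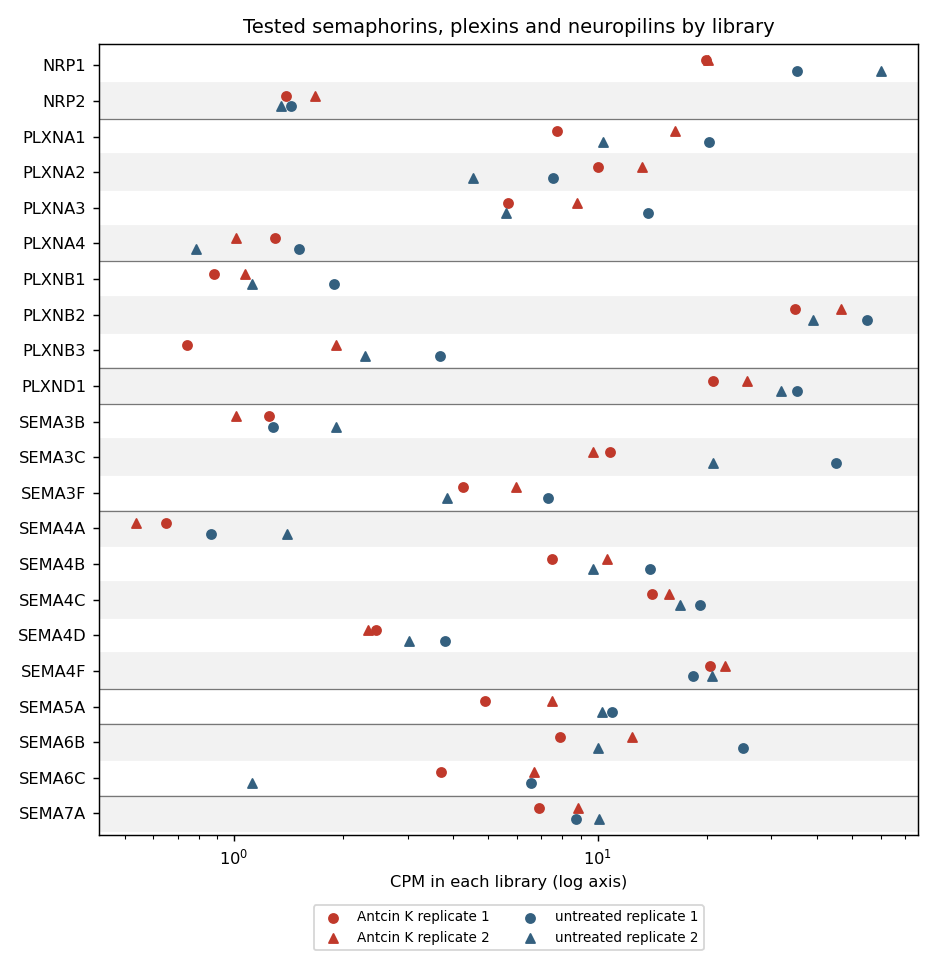
CPM of the 22 tested genes in each library (log axis), Antcin K points in red above untreated points in blue, circles for replicate 1 and triangles for replicate 2. NRP1, SEMA3C, SEMA5A and PLXND1 have both red points left of both blue points, and PLXNA2 has both to the right.

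**Figure D3:**
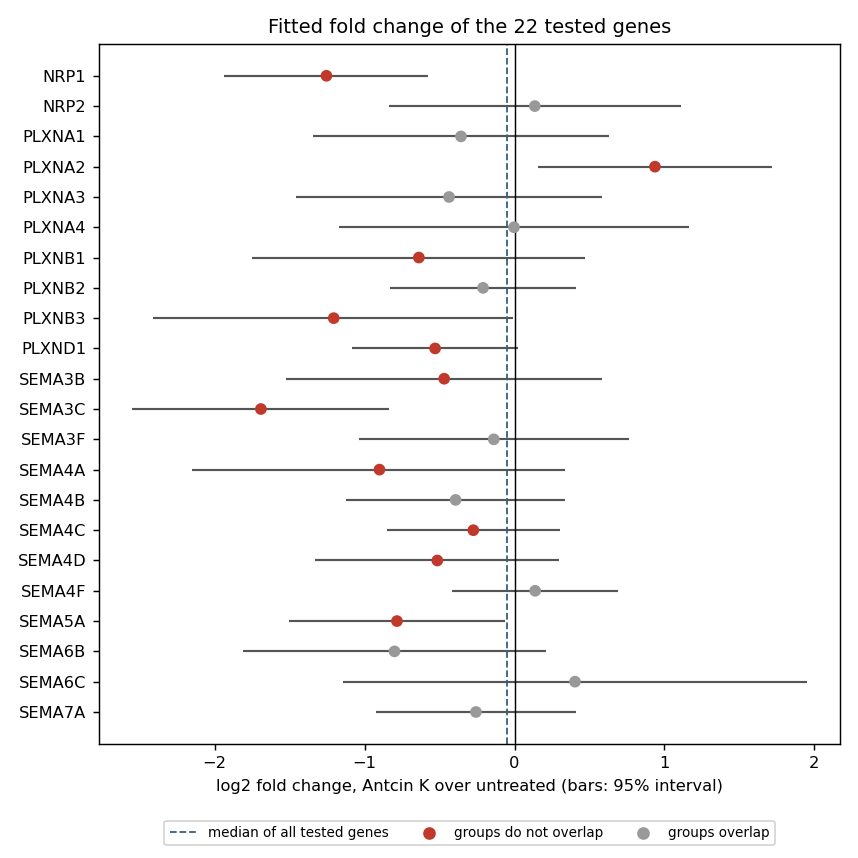
Fitted log2 fold change, Antcin K over untreated, of the 22 tested genes with 95% intervals, red where the groups do not overlap and grey where they do. The dashed line marks the median of all tested genes (-0.049); the intervals of NRP1, SEMA3C, SEMA5A and PLXNB3 lie below 0 and that of PLXNA2 lies above 0.

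Among the ligands, SEMA3C (ENSG00000075223, chromosome 7, 80742538 to 80922359, minus strand, hg38) encodes a secreted class 3 semaphorin that signals through neuropilins with PLXND1 or class A plexins and is known from the development of the cardiac outflow tract. It had 233 and 162 counts in Antcin K cells and 1204 and 371 in untreated cells. That is 10.8 and 9.68 CPM in Antcin K cells against 45.3 and 20.8 CPM in untreated cells. Both Antcin K libraries were low and close together, while the untreated libraries differed 2.18-fold from each other. The means were 10.2 ± 0.786 CPM in Antcin K cells and 33.0 ± 17.4 CPM in untreated cells (SD, n = 2 each), and the fitted level was 3.23-fold lower in Antcin K cells. On the log2 scale this was -1.69 ± 0.37 (standard error), the 95% interval ran from -2.55 to -0.84 (adjusted p = 0.366 by edgeR), and the gene ranked 56 by p among the tested genes. DESeq2 gave an adjusted p = 0.0132 and edgeR without the count filter one of 0.0002, and over 15 alternatives it ran from 5.8e-17 to 0.631 and passed in 5. The other passes came without untreated replicate 1, without untreated replicate 2 and with crossed replicate numbers as a block, an alternative added after the data were seen. In these settings 9.73%, 27.0% and 9.72% of all tested genes passed, and the first and second leave 1 untreated library. The fitted value was -1.02 without untreated replicate 1.

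The promoter sequences of SEMA3C and PLXNA2 are shown because these had the lowest p among the tested family genes with a lower and a higher mean, and because their base composition differs widely. Each line gives the 250 bases before the RefSeq start (GRCh38.p14), read 5′ to 3′ on the strand of the gene, with GC boxes (GGGCGG on either strand) in capitals. SEMA3C lies at chr7:80922390-80922639 and PLXNA2 at chr1:208244385-208244634, both on the minus strand.
SEMA3C: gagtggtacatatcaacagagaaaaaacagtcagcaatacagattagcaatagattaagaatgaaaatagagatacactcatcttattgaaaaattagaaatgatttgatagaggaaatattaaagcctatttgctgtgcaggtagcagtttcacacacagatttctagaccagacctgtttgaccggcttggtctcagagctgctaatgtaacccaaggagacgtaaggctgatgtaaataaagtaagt
PLXNA2: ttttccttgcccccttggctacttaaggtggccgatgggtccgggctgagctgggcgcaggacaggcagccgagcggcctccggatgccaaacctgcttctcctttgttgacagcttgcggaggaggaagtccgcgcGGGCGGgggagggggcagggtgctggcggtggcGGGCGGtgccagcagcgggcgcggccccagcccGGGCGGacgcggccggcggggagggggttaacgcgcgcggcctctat
The SEMA3C window held 36.4% G and C and 2 CpG, and the PLXNA2 window 72.4% and 27 CpG, where the medians over 27305 promoters of the same length were 58.0% and 11. SEMA3C had no GC box and PLXNA2 had 3. The 27 family promoters in the RefSeq set had higher medians than all promoters, at 64.4% G and C and 13 CpG. Of the 27, 18 held at least 1 GC box, and 42.3% of all promoters did. Whether the share with a GC box goes beyond the base composition was not tested. Neither printed window held an AP-1 site (TGANTCA), a CRE (TGACGTCA), a TATA box (TATAAA) or the NF-κB consensus on either strand. Across the 27 these letters were found in SEMA4C for the CRE, PLXNC1 for AP-1, and PLXNA1 and SEMA6D for the NF-κB consensus, and in 0 for the TATA box. Over all promoters 1.77% held the CRE, 6.6% AP-1, 9.57% the NF-κB consensus and 11.1% the TATA box. Matches of different motifs may share letters, and a match or its lack describes only these windows.

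Of the other class 3 ligands that were tested, SEMA3F overlapped between groups, and the groups of SEMA3B were separated only by a narrow margin. SEMA3F, a ligand that prefers NRP2 and is known as a repellent of tumour cells and vessels, had 4.26 and 5.98 CPM in Antcin K cells against 7.30 and 3.86 CPM in untreated cells. Its log2 fold change was -0.14, with an interval of -1.04 to 0.76, and it was 0.40 without untreated replicate 1. SEMA3B, encoded beside SEMA3F on chromosome 3 and known as a tumour suppressor candidate in lung cancer, had 1.25 and 1.02 CPM in Antcin K cells against 1.28 and 1.904 CPM in untreated cells (log2 fold change -0.47). Per length, SEMA3C stood at 2.00 and 1.28 times the level of SEMA3F in the Antcin K libraries. In the untreated libraries it stood at 4.91 and 4.25 times, so this ratio did not overlap between groups. How often ratios of other gene pairs do so was not tested.

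Class 4 semaphorins are membrane-bound ligands of class B plexins. SEMA4F, the highest of them per length and known from neurons and glia, had 20.4 and 22.4 CPM in Antcin K cells against 18.3 and 20.6 CPM in untreated cells. These values lay within a narrow range and the groups overlapped, with a log2 fold change of 0.14 and an interval of -0.42 to 0.69. SEMA4C, a ligand of PLXNB2, had 14.1 and 15.7 CPM in Antcin K cells against 19.2 and 16.9 CPM in untreated cells, a small difference without overlap (log2 fold change -0.27, interval -0.85 to 0.30). SEMA4D, the PLXNB1 ligand by which osteoclasts restrain bone formation in mice, had 2.45 and 2.33 CPM in Antcin K cells against 3.80 and 3.02 CPM in untreated cells. SEMA4A, an immune semaphorin, had 14 and 9 counts in Antcin K cells and 23 and 25 in untreated cells. SEMA4B overlapped between groups (log2 fold change -0.39, or -0.11 without untreated replicate 1).

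SEMA5A, a transmembrane semaphorin with thrombospondin repeats that binds PLXNB3, had 4.91 and 7.47 CPM in Antcin K cells against 10.95 and 10.3 CPM in untreated cells. The untreated libraries were close to each other and above both Antcin K libraries. The fitted log2 value was -0.78, its interval ran from -1.51 to -0.063 (adjusted p = 0.388 by edgeR), and it ranged from -0.53 to -1.08 when single libraries were left out. SEMA6B, a class 6 ligand of PLXNA2 and PLXNA4, had 7.87 and 12.4 CPM in Antcin K cells against 25.1 and 10.0 CPM in untreated cells. Only untreated replicate 1 stood apart, and without it the log2 fold change of -0.80 became 0.012. SEMA6C, a relative of SEMA6B, had 3.71 and 6.69 CPM in Antcin K cells against 6.55 and 1.12 CPM in untreated cells, a 5.85-fold gap within the untreated group. The fitted log2 value of 0.40 was 2.196 when untreated replicate 1 was left out and -0.35 when untreated replicate 2 was. SEMA7A, a GPI-anchored ligand that binds β1 integrin and PLXNC1, had 6.90 and 8.84 CPM in Antcin K cells against 8.73 and 10.1 CPM in untreated cells, and the groups overlapped (log2 fold change -0.26).

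Among the co-receptors, NRP1 (ENSG00000099250, chromosome 10, 33177492 to 33336262, minus strand, hg38) encodes neuropilin 1, which pairs with plexins for class 3 semaphorins and with VEGF receptors. It had 429 and 337 counts in Antcin K cells and 940 and 1075 in untreated cells. In CPM these were 19.9 and 20.1 in Antcin K cells against 35.4 and 60.2 in untreated cells. The Antcin K libraries nearly coincided, and the untreated libraries were both higher but apart from each other. The log2 fold change was -1.25 ± 0.30 (standard error), the interval ran from -1.94 to -0.57 (adjusted p = 0.366 by edgeR), and it was -0.82 without untreated replicate 2. DESeq2 gave an adjusted p = 0.0688 and edgeR without the count filter one of 0.0123, and over 15 alternatives it ran from 1.1e-11 to 1 and passed in 4. Beside the fit without the filter, these were the leave-outs of either untreated library and the crossed block, where 9.73%, 27.0% and 9.72% of all tested genes passed.

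NRP2, its paralogue and a co-receptor for SEMA3F and VEGF-C, was far lower, with 1.39 and 1.67 CPM in Antcin K cells and 1.43 and 1.34 CPM in untreated cells. The log2 fold change was 0.14 with an interval of -0.84 to 1.11, so at 24 to 38 counts per library a difference of about that width was not detectable. Per length, NRP1 was 17.2 and 14.5 times as high as NRP2 in the Antcin K libraries and 29.8 and 54.0 times as high in the untreated libraries. The neuropilin transcripts of these cells were mostly NRP1 in every library, less so in both Antcin K libraries.

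SEMA3C and NRP1 differed in the library that carried the highest level. SEMA3C was highest in untreated replicate 1 and NRP1 in untreated replicate 2. Per length, SEMA3C stood at 1.03 and 0.908 times the level of NRP1 in the Antcin K libraries and at 2.42 and 0.652 times in the untreated libraries, so this ratio overlapped. The ratio of NRP1 to PLXND1, which can form one receptor for class 3 semaphorins, was 0.793 and 0.647 in Antcin K cells against 0.832 and 1.56 in untreated cells.

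The 5 genes whose centred log2 CPM lay closest to that of NRP1 over the 4 libraries, among 8922 others with a mean of at least 5 CPM, were UBA6, PKD2, SIGIRR, CSF1R and NR2C1. Their Euclidean distances to NRP1 ran from 0.096 to 0.207 on the log2 scale. UBA6, a ubiquitin-activating enzyme gene, had 9.54 and 9.38 CPM in Antcin K cells against 15.7 and 29.01 CPM in untreated cells. PKD2, the polycystin 2 channel gene, had 11.9 and 12.4 CPM in Antcin K cells against 19.6 and 36.1 CPM in untreated cells. In each of the 5 the highest library was untreated replicate 2, as for NRP1, which follows from choosing them by closeness to NRP1.

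Among the plexins, PLXNA2 (ENSG00000076356, chromosome 1, 208022242 to 208244384, minus strand, hg38) was the only tested gene of the family with both Antcin K libraries above both untreated libraries. It encodes a class A plexin that serves class 3 semaphorins with a neuropilin and SEMA6A directly. It had 217 and 221 counts in Antcin K cells and 200 and 81 in untreated cells, or 10.1 and 13.2 CPM in Antcin K cells against 7.53 and 4.54 CPM in untreated cells. PLXNA2 had a log2 fold change of 0.94 ± 0.34 (standard error), its interval ran from 0.16 to 1.72 (adjusted p = 0.377 by edgeR), and the value was 0.62 without untreated replicate 2.

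PLXNA1, another class A plexin gene and a receptor for SEMA3A and SEMA6D, had 7.74 and 16.3 CPM in Antcin K cells against 20.2 and 10.4 CPM in untreated cells. The groups overlapped widely, and the log2 fold change of -0.36 turned to 0.21 without untreated replicate 1 and to 0.066 without Antcin K replicate 1. Per length, PLXNA2 stood at 1.05 and 0.657 times the level of PLXNA1 in the Antcin K libraries, against 0.302 and 0.355 times in the untreated libraries. This ratio did not overlap and was higher in both Antcin K libraries, but PLXNA2 exceeded PLXNA1 only in Antcin K replicate 1. How often the ratio of other gene pairs does not overlap was not tested. PLXNA3, a receptor for SEMA3F, had 5.65 and 8.78 CPM in Antcin K cells against 13.8 and 5.60 CPM in untreated cells, and its log2 fold change of -0.44 turned to 0.36 without untreated replicate 1. It overlaps LAGE3 on the opposite strand, which holds 4047 counts, and the strand setting of the counting is not given in the sources used here. PLXNA4 was low, with 28 and 17 counts in Antcin K cells and 40 and 14 in untreated cells (log2 fold change -0.0033, interval -1.17 to 1.17).

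PLXND1, a receptor best known from vessels, where SEMA3E binds it without a neuropilin, had 449 and 432 counts in Antcin K cells and 937 and 571 in untreated cells. In CPM these were 20.8 and 25.8 in Antcin K cells against 35.3 and 31.98 in untreated cells, with no overlap. PLXND1 had a log2 fold change of -0.53, its interval ran from -1.08 to 0.023 (adjusted p = 0.418 by edgeR), and the value stayed between -0.40 and -0.66 when single libraries were left out. SEMA3E itself had 5 and 1 counts in Antcin K cells and 1 and 0 in untreated cells.

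Of the class B plexins, PLXNB2 had 34.9 and 46.5 CPM in Antcin K cells against 54.9 and 39.2 CPM in untreated cells. The groups overlapped, and the log2 fold change of -0.21 turned to 0.053 without untreated replicate 1 and to 0.068 after the trend of expression with GC content was removed. PLXNB3, the SEMA5A receptor, had 16 and 32 counts in Antcin K cells and 98 and 41 in untreated cells. The corresponding CPM were 0.741 and 1.91 in Antcin K cells against 3.69 and 2.30 in untreated cells, a log2 fold change of -1.21 whose interval ran from -2.41 to -0.011 (adjusted p = 0.402 by edgeR). Without Antcin K replicate 1 its value was -0.67, and without Antcin K replicate 2 it was -1.99. PLXNB3 overlaps PLXNB3-AS1 on the opposite strand, which holds 64 counts. PLXNB1, the SEMA4D receptor, had 0.880 and 1.08 CPM in Antcin K cells against 1.88 and 1.12 CPM in untreated cells, so its groups were separated by a narrow margin, and the fitted -0.64 on the log2 scale was -0.20 once untreated replicate 1 was left out. Per length, PLXNB2 was 53.2 and 58.1 times as high as PLXNB1 in the Antcin K libraries and 39.2 and 47.0 times as high in the untreated libraries. The last plexin, PLXNC1, had 8 and 2 counts in Antcin K cells and 5 and 5 in untreated cells.

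Within the groups, these genes moved together between libraries. In 14 of the 22 the level was higher in Antcin K replicate 2 than in replicate 1 and also higher in untreated replicate 1 than in replicate 2, while 32.6% of all tested genes showed this. The libraries on the high side were those with the larger mitochondrial share of their group. The median gap on the log2 scale was 0.33 between the Antcin K libraries and 0.51 between the untreated libraries, where the medians over all tested genes were 0.0006 and -0.013. Across the 22 genes the gaps of both groups had a Pearson r of 0.50, and a Spearman rank correlation of 0.50, with all genes read from the same 4 libraries. Over all tested genes r was 0.29. PLXNA1, PLXNA3, PLXNB3, SEMA6B and SEMA6C had large gaps in both groups. That of PLXNB3 was 1.37 between the Antcin K libraries, the largest there, and 0.68 between the untreated libraries. SEMA3C had a large gap only between the untreated libraries and NRP1 one in the opposite direction. For 11 of the 22 genes the gap between the untreated libraries was larger than the fitted difference between the groups.

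**Figure D4:**
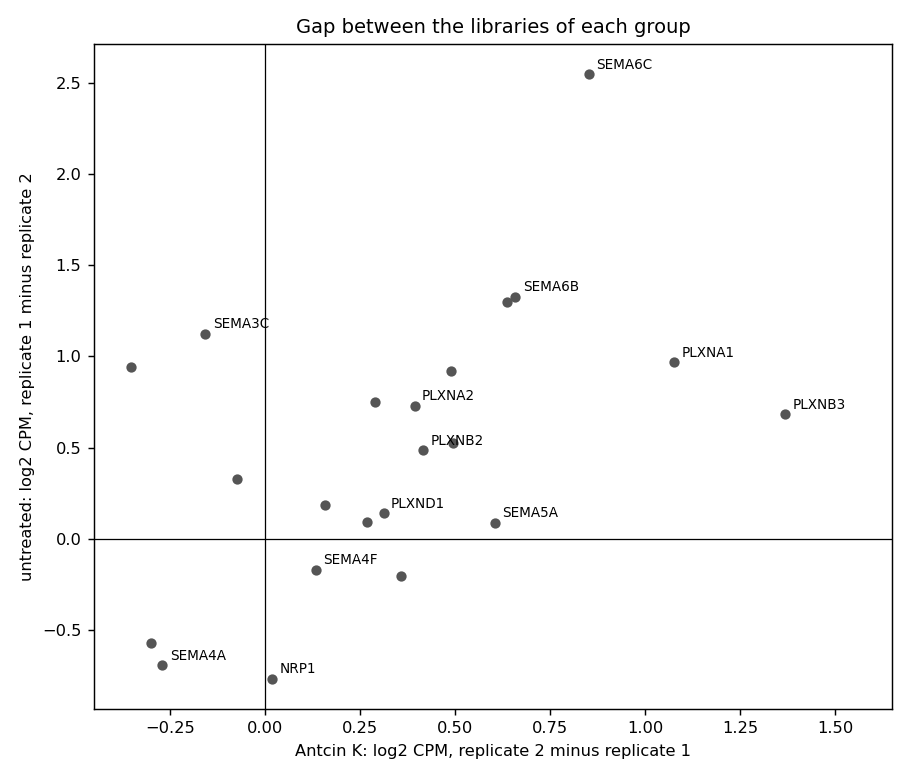
Difference in log2 CPM between the libraries of each group for the 22 tested genes, Antcin K replicate 2 minus 1 on the horizontal axis and untreated replicate 1 minus 2 on the vertical axis. Of the points 14 lie in the upper right field, with SEMA6C highest; SEMA3C and NRP1 lie outside it.

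The 22 transcripts were rich in G and C, with a median of 60.3% over GENCODE transcripts against 50.4% for all tested genes with a known value. SEMA3C, NRP1 and SEMA5A were exceptions at 46.1%, 46.2% and 49.4%. Removing a smooth curve of expression on GC content from each library, an alternative added after the data were seen, gave -1.82 for SEMA3C, -1.41 for NRP1, -1.01 for SEMA5A, -0.46 for PLXND1 and 0.75 for PLXNA2 on the log2 scale. The median over the 22 was then -0.20. Leaving the mitochondrially encoded genes out of the fit instead gave a median of -0.38.

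Genes that act with these ligands and receptors were read from the same fit, in which 53.8% of all tested genes had a lower mean (median log2 fold change -0.049). Of 15 co-receptors and other semaphorin receptors 8 were tested, and 7 of the 8 had a lower mean, with a median log2 fold change of -0.26. ITGB1, the β1 integrin gene whose product binds SEMA7A, had 50.3 and 47.2 CPM in Antcin K cells against 154 and 99.9 CPM in untreated cells (log2 fold change -1.38, edgeR, adjusted p = 0.366). Its α1 partner gene ITGA1 and the SEMA3A co-receptor gene L1CAM had log2 fold changes of -0.84 and -0.51. MET, a receptor tyrosine kinase that associates with class B plexins, had -0.002.

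Of 8 VEGF-family ligands and receptors that share the neuropilins 5 were tested, 4 of them with a lower mean (median -0.57). PGF, the placental growth factor gene, had 16.5 and 18.6 CPM in Antcin K cells against 25.2 and 26.8 CPM in untreated cells (log2 fold change -0.57, edgeR, adjusted p = 0.398). VEGFB had 36.1 and 57.3 CPM in Antcin K cells against 114 and 49.1 CPM in untreated cells, which overlapped. FLT4, the VEGF-C receptor gene, had 6.30 and 4.42 CPM in Antcin K cells against 2.75 and 4.48 CPM in untreated cells and was the one with a higher mean. KDR, the main VEGF-A receptor, had at most 5 counts in any library and was not tested.

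Of 18 GTPase partners of plexins and their exchange factors 15 were tested, 7 with a lower and 8 with a higher mean (median 0.077). RASA1, a Ras GTPase-activating protein gene, had 7.13 and 6.09 CPM in Antcin K cells against 15.1 and 11.3 CPM in untreated cells (log2 fold change -0.995). FARP2, the exchange factor that class A plexins release on SEMA3A binding, had 42.9 and 41.1 CPM in Antcin K cells against 21.9 and 27.8 CPM in untreated cells (log2 fold change 0.76). The groups overlapped for neither gene, and the adjusted p was 0.366 for RASA1 and 0.369 for FARP2 (edgeR).

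Of 23 cytoplasmic effectors 22 were tested, 16 with a lower and 6 with a higher mean (median -0.24). PAK1, a Rac effector kinase gene, had 122 and 106 CPM in Antcin K cells against 54.8 and 69.7 CPM in untreated cells (log2 fold change 0.87, edgeR, adjusted p = 0.366). Of 8 proteases that cut semaphorins, plexins or neuropilins 7 were tested, 5 with a lower mean (median -0.32). ADAMTS1 stood at -0.997 on the log2 scale, and the sheddase genes ADAM10 and ADAM17 had -0.57 and -0.39. Over these 5 lists edgeR called 0 genes at an adjusted p under 0.05.

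**Figure D5:**
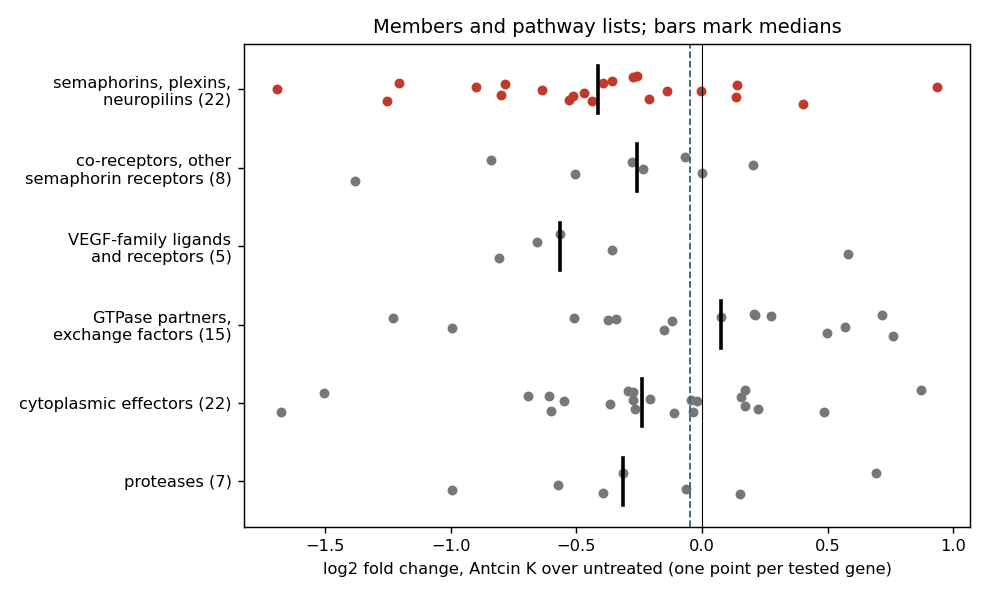
Log2 fold change, Antcin K over untreated, of each tested gene in the family and in 5 lists of partners (number tested in brackets); black bars mark list medians and the dashed line the median of all tested genes (-0.049). The family median is -0.41, and the list medians run from -0.57 for VEGF-family genes to 0.077 for GTPase partners.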

How the data were processed

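RNA from 4 JJ012 samples was sequenced with paired-end reads on a NovaSeq, per the labels' protocols. Reads were handled with cutadapt 1.9.1, HISAT2 2.2.1 plus HTSeq 0.6.1 on hg38, per the submitters' processing notes. Neither the release of the annotation nor the strandedness of counting is given in the sources used here. The deposited counts are raw counts per Ensembl gene. The deposited FPKM values were scaled by the authors to exonic length and library total, and recomputing them from the counts gave every value within 0.005. The mean chi-square per gene between replicates was 34.8 for Antcin K and 166 for untreated libraries, so no pair was a repeat of one library.

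The counts were scaled by TMM, filtered with filterByExpr (minimum count 10) and fitted over all genes with the robust quasi-likelihood test of edgeR 4.0.16 in R 4.3.3, with group as the only term. Log2 fold changes are Antcin K over untreated. P-values were adjusted by Benjamini-Hochberg over all 14717 genes tested, and the threshold was 0.05. DESeq2 1.42.0 and limma 3.58.1 served as alternatives. The code was tested on simulated data. The family members, the partner lists and the tests were chosen with earlier results of these data known. All members are accounted for; those described by library are the neuropilins, the highest by FPKM in each class and the 4 with the lowest p in each direction, with others added by class. From each partner list the 3 genes with the lowest p are given, except 3 that are not reported here, and MET and KDR were named after their values were seen.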

Additional observations from a re-analysis of the deposited data

How the results depend on the processing

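The number of genes called among all tested genes was 0 in edgeR with TMM, RLE or upper-quartile scaling, with a minimum of 1 CPM in 2 libraries, without mitochondrially encoded genes and with the GC trend removed. It was 208 without the count filter, where 2 family members passed (NRP1 and SEMA3C), and 53 with DESeq2, where 1 passed (SEMA3C). The labels do not say that a replicate number marks a shared culture or day. With the replicate number as a block 26 genes (0.177%) and 0 members were called, and the deviations of same-numbered libraries correlated at -0.40. With the numbers crossed as a block, added after the data were seen, 1430 genes (9.72%) and 5 members were called. Leaving out single libraries gave 3 to 3971 genes and 0 to 8 members called, with the lone library of a group assumed to vary like the pair of the other.

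The median log2 fold change over the members ran from -0.57 to -0.14 when single libraries were left out and stayed negative in the 13 count-based alternatives. On the FPKM scale, limma gave a median of -0.16 with a pseudocount of 1 and of -0.26 with 0.1, over the 15 members in those fits. Of 315 values of the 22 tested members under an alternative, 275 kept their sign and stayed uncalled, 20 kept their sign and passed the threshold, and 20 changed sign. With the GC trend removed the sign changed for NRP2 (-0.066), PLXNB2 (0.068) and SEMA3F (0.071). PLXNA4, at -0.0033, changed sign with RLE (0.0074), no count filter (0.041), DESeq2 (0.014), either replicate block (0.049) and without mitochondrially encoded genes (0.027). When single libraries were left out it changed for PLXNA1 (-0.96 to 0.21, with 0.066 without Antcin K replicate 1), PLXNA3 (-0.94 to 0.36), PLXNA4 (-0.37 to 0.57, with 0.18 without Antcin K replicate 2), PLXNB2 (-0.43 to 0.053), SEMA3F (-0.52 to 0.40, with 0.069 without Antcin K replicate 1), SEMA6B (-1.32 to 0.012) and SEMA6C (-0.35 to 2.196, with -0.051 without Antcin K replicate 2). The cause was not tested. Limma-trend on log2(FPKM + 1) gave smaller fold changes for 14 of 15 members and a larger one for SEMA4F. Counts of at most 50 in each library limit NRP2, PLXNA4, PLXNB1, SEMA3B and SEMA4A, and PLXNB3 had 16 and 32 counts in the Antcin K libraries.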
